A study of Oryza sativa Japonica Group with 12 samples.

Results

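The shoot base of rice was examined for 9 genes of lignin precursor synthesis and lignin polymerisation. They were phenylalanine ammonia-lyase 6 (PAL06), the 4-coumarate:CoA ligase genes 4CL-3, 4CL.2, 4CL4 and 4CL5, the cinnamyl alcohol dehydrogenase genes CAD2 and CAD6, and the laccase genes LAC7 and LAC23. The members were all probe sets annotated to 1 gene that carries one of these names as its symbol or synonym. That gave 9 genes on 11 probe sets, of 17905 genes and 57194 probe sets in all, and no filter on low values removed any of them. The genes were chosen by name after the genotype and age differences of these same arrays were known, so every difference of their group means is given as a description. Where their calls in a fit over all genes are counted, nothing is read from them.

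Lignin is the phenolic polymer that stiffens the secondary walls of xylem and fibres in grass shoots. Its building blocks, the monolignols, are made from phenylalanine by a chain of enzymes. PAL removes the amino group of phenylalanine and releases ammonium, 4CL couples the resulting hydroxycinnamic acids to coenzyme A, cinnamoyl-CoA reductase (CCR) and CAD reduce them to alcohols, and laccases in the wall oxidise the alcohols into radicals that couple into the polymer. The ammonium that PAL releases has to be assimilated again, a reaction that glutamine synthetase catalyses.

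The series compared rice of the cultivar Nipponbare that is homozygous for gs1;2, a mutation of the cytosolic glutamine synthetase gene GLN1-2, with the wild type, and gs1;2 is also called the mutant here. RNA came from the basal 5 mm of shoots, grown hydroponically on 1 mM ammonium without another nitrogen source, and was hybridised to a short-oligonucleotide rice array that reports a log2 signal for each probe set. The 4 groups were gs1;2 at 11 d, wild type at 11 d, gs1;2 at 7 d and wild type at 7 d, with 3 arrays each, which the submitters call biological replicates. The labels name no second mutant allele or complemented line, so every genotype difference rests on a single mutant genotype. The growth text also describes another chamber and 18 days of culture for samples numbered 13 to 36, and 13, 14 and 15 are the title numbers of the wild-type arrays at 11 d. A difference in growth conditions of that group cannot be told apart from genotype and age. The array titles also read 3rd at 7 d and 4th at 11 d in both genotypes, and the titles do not say what this marks. Whatever it marks cannot be told apart from age.

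Arrays of a group correlated at 0.994 to 0.997 over all probe sets, while the wild-type arrays at 11 d correlated with the arrays of the other groups at 0.978 to 0.985. The targeted gene GLN1-2 was at 8.37, 8.65 and 11.44 (log2 level) on the arrays labelled gs1;2 at 11 d, against 12.44, 12.42 and 12.50 in wild type at 11 d. At 7 d it was at 7.76, 7.65 and 7.80 in gs1;2, against 12.38, 12.31 and 12.46 in wild type. The array labelled gs1;2 11 d replicate 3 therefore went against its label in this gene and is called the array in doubt, and values without it are given beside the results that rest on it. The class I KNOX genes that mark the shoot base, 5 of 7 of which were matched, summed to 4695 to 4854 (linear signal) in gs1;2 and 4704 to 5358 in wild type at 11 d, and to 3895 to 4834 in gs1;2 and 3811 to 5125 in wild type at 7 d. These sums rested mostly on OSH1, with gs1;2 minus wild type at 0.12 (log2) at 11 d. The other KNOX genes did not all run alike at 11 d, with OSH71 at -0.52, OSH3 at -0.51, OSH6 at 0.29 and OSH43 at 0.01. Root markers (5 of 6 matched) summed to 905 to 1012 in gs1;2 and 682 to 779 in wild type at 11 d, and to 831 to 1013 in gs1;2 and 1059 to 1154 in wild type at 7 d. At 11 d the root marker CASP1 went against its sum, with gs1;2 minus wild type at -1.09 (log2), while the other matched root markers had higher means in gs1;2. No marker gene of any list is at 0 on this scale, and signal over background is unknown.

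PAL06 encodes an isoform of the enzyme that opens the pathway. Its probe set with the higher mean was at 10.32, 10.41 and 9.62 (log2 level) in the mutant at 11 d, against 8.70, 8.10 and 7.89 in wild type at 11 d. At 7 d the levels were 8.23, 8.99 and 8.07 in the mutant, against 7.92, 8.00 and 7.97 in wild type. All mutant arrays at 11 d lay above the 9 other arrays. At 7 d the mutant arrays lay just above those of wild type, and wild type at 11 d overlapped both 7 d groups. The difference of mutant minus wild type was 1.88 at 11 d (log2, SE 0.26, 3.69-fold) and 0.47 at 7 d (SE 0.26). Without the array labelled gs1;2 11 d replicate 3, the 11 d difference was 2.13. The 7 d difference rested largely on 1 array and was 0.19 without gs1;2 7 d replicate 2. The second probe set of PAL06 gave differences of 1.85 at 11 d and 0.53 at 7 d (SE 0.26 each), and both probe sets correlated at 0.998 over the 12 arrays. PAL genes are a family of closely related copies, and probes of an _x_at probe set can match other transcripts, so the split of this signal among PAL copies is uncertain. In RNA of a whole tissue, more cells of a type and more RNA per cell cannot be told apart.

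**Figure D1:**
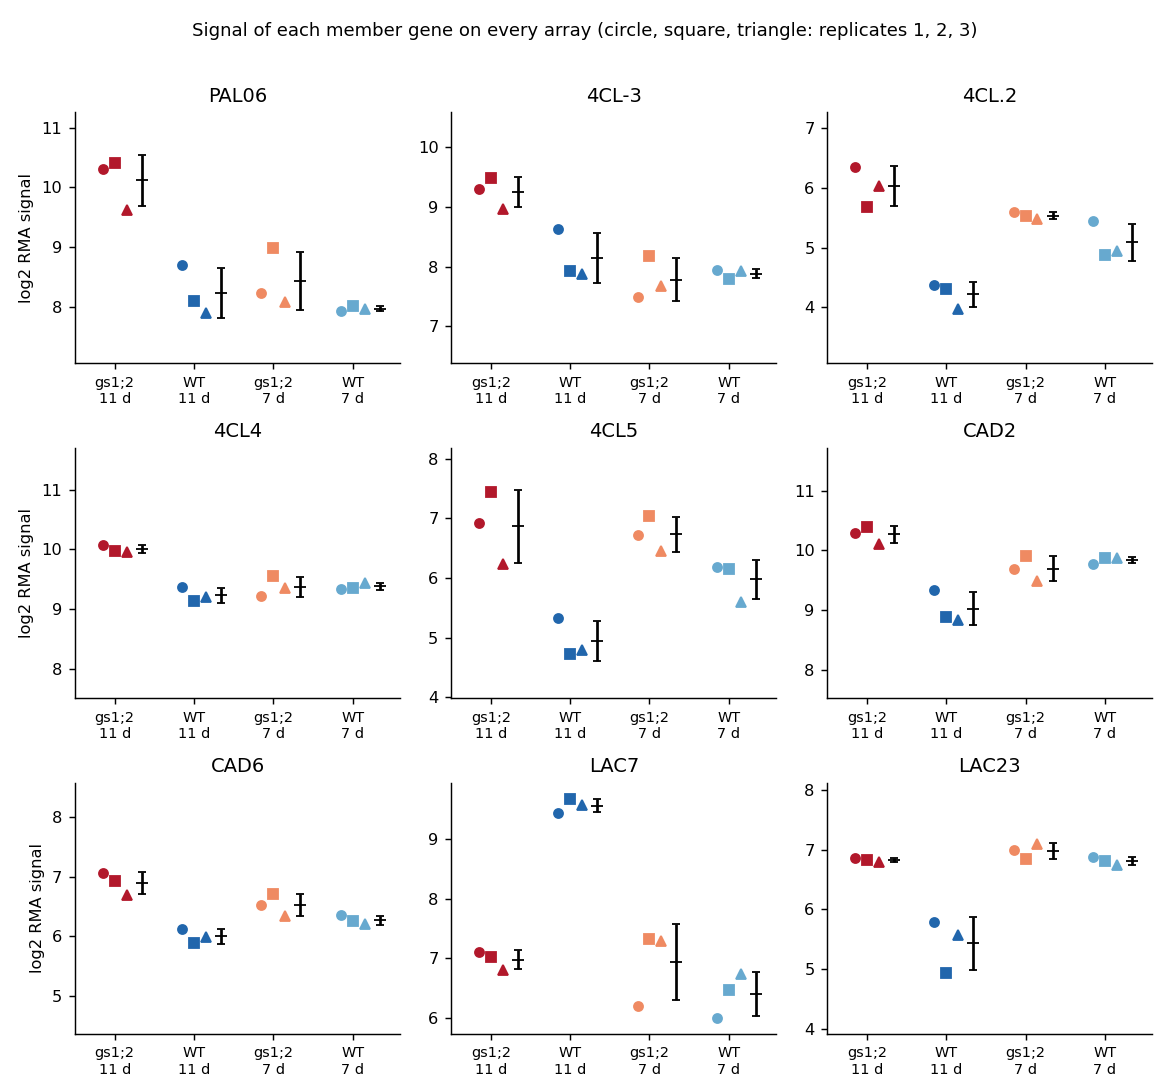
The log2 RMA signal of each of the 9 genes (vertical axis, 4 log2 units in every panel) is plotted for every array in the 4 groups on the horizontal axis, with circle, square and triangle for replicates 1, 2 and 3 and the mean ± SD beside them (n = 3). The mutant arrays at 11 d stand above the 9 other arrays for PAL06, 4CL-3, 4CL.2, 4CL4 and CAD2, and the wild-type arrays at 11 d stand above all others for LAC7.

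The 4CL genes encode the ligases that activate hydroxycinnamic acids, and suppression of 4CL-3 is known to lower lignin in rice. Its level was 9.29, 9.48 and 8.97 (log2) in the mutant at 11 d, against 8.62, 7.93 and 7.87 in wild type at 11 d. At 7 d it was 7.49, 8.18 and 7.68 in the mutant, against 7.94, 7.79 and 7.92 in wild type. As with PAL06, the mutant arrays at 11 d lay above the 9 other arrays, whereas here the genotypes overlapped at 7 d. The difference of mutant minus wild type was 1.10 at 11 d (log2, SE 0.21, 2.15-fold), or 1.24 without the array labelled gs1;2 11 d replicate 3, and -0.10 at 7 d (SE 0.21).

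4CL4, also known in rice for a part in aluminium resistance, was at 10.08, 9.98 and 9.96 (log2 level) in the mutant at 11 d, against 9.37, 9.13 and 9.20 in wild type at 11 d. The 7 d levels were 9.22, 9.56 and 9.36 in the mutant, against 9.34, 9.36 and 9.44 in wild type. Here too the mutant arrays at 11 d alone lay above the rest, while the 3 other groups overlapped. The difference of mutant minus wild type was 0.77 at 11 d (log2, SE 0.09, 1.71-fold), or 0.80 without the array labelled gs1;2 11 d replicate 3. A second, dim probe set of 4CL4 ranged from 3.49 to 4.09 over the 12 arrays and gave -0.06 at 11 d (log2, SE 0.10), so the probe sets of this gene disagreed.

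4CL.2 was at 6.36, 5.69 and 6.04 (log2 level) in the mutant at 11 d, against 4.38, 4.31 and 3.98 in wild type at 11 d. Its 7 d levels were 5.60, 5.53 and 5.48 in the mutant, against 5.44, 4.88 and 4.94 in wild type. The 4 groups kept an order without overlap, with gs1;2 at 11 d highest, then gs1;2 at 7 d, wild type at 7 d and wild type at 11 d. The genotype difference was 1.81 at 11 d (log2, SE 0.18, 3.50-fold), or 1.80 without the array labelled gs1;2 11 d replicate 3, and 0.45 at 7 d (SE 0.18).

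4CL5 was at 6.92, 7.44 and 6.23 (log2 level) in the mutant at 11 d, against 5.33, 4.73 and 4.79 in wild type at 11 d. At 7 d its levels were 6.72, 7.04 and 6.45 in the mutant, against 6.19, 6.15 and 5.60 in wild type. In this gene the wild type at 11 d was the group that stood apart, below the 9 other arrays. Both mutant groups overlapped, and wild type at 7 d lay between them and wild type at 11 d. The genotype difference of 1.92 at 11 d (log2, SE 0.28, 3.78-fold) was 2.23 without the array labelled gs1;2 11 d replicate 3, and at 7 d it was 0.75 (SE 0.28).

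CAD2, known in rice from the gold hull and internode mutant gh2, encodes the dehydrogenase of the last reduction step. The levels were 10.29, 10.40 and 10.11 (log2) in the mutant at 11 d, against 9.34, 8.88 and 8.84 in wild type at 11 d. At 7 d they were 9.68, 9.91 and 9.50 in the mutant, against 9.78, 9.87 and 9.87 in wild type. The mutant arrays at 11 d lay above all others and the wild-type arrays at 11 d below all others, with the 7 d arrays of both genotypes overlapping between them. The genotype difference was 1.25 at 11 d (log2, SE 0.14, 2.38-fold), or 1.33 without the array labelled gs1;2 11 d replicate 3, and -0.14 at 7 d (SE 0.14).

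CAD6, another gene of the CAD family, was at 7.06, 6.93 and 6.69 (log2 level) in the mutant at 11 d, against 6.12, 5.88 and 5.99 in wild type at 11 d. Its 7 d levels were 6.52, 6.71 and 6.35 in the mutant, against 6.36, 6.25 and 6.20 in wild type. The wild-type arrays at 11 d lay below all others, and every other pair of groups next to each other in the order of means overlapped. The difference of mutant minus wild type was 0.90 at 11 d (log2, SE 0.11, 1.86-fold), or 1.00 without the array labelled gs1;2 11 d replicate 3, and 0.26 at 7 d (SE 0.11), or 0.16 without gs1;2 7 d replicate 2.

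The laccase genes, which act at the polymerisation step, ran in opposite directions. LAC7 was at 7.11, 7.03 and 6.80 (log2 level) in the mutant at 11 d, against 9.44, 9.67 and 9.58 in wild type at 11 d. At 7 d it was at 6.20, 7.33 and 7.29 in the mutant, against 6.01, 6.46 and 6.74 in wild type. The wild-type arrays at 11 d stood above the 9 other arrays, and the 7 d arrays of the mutant overlapped both other groups. The difference of mutant minus wild type was -2.59 at 11 d (log2, SE 0.26, 6.00-fold lower), or -2.50 without the array labelled gs1;2 11 d replicate 3, and 0.53 at 7 d (SE 0.26). Leaving out single arrays took the 7 d value to between 0.34 (without wild-type 7 d replicate 1 or gs1;2 7 d replicate 2) and 0.91 (without gs1;2 7 d replicate 1).

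LAC23 was at 6.87, 6.82 and 6.79 (log2 level) in the mutant at 11 d, against 5.79, 4.94 and 5.57 in wild type at 11 d. The 7 d levels were 7.00, 6.84 and 7.09 in the mutant, against 6.88, 6.81 and 6.74 in wild type. Here the wild type at 11 d lay below the 9 other arrays, and the 3 other groups overlapped. The genotype difference was 1.39 at 11 d (log2, SE 0.16, 2.63-fold) and 0.17 at 7 d (SE 0.16). Without wild-type 11 d replicate 2, its lowest array, the 11 d difference was 1.15, and without the array labelled gs1;2 11 d replicate 3 it was 1.41.

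Over the 9 genes, each on its probe set with the highest mean, the median difference of mutant minus wild type was 1.25 at 11 d (log2), against 0.02 over all 17905 genes, and 0.26 at 7 d, against 0.01 over all genes. In limma's fit, 8 of the 9 were higher and 1, LAC7, was lower at 11 d at an adjusted p under 0.05, where 23.9% of all genes passed as higher and 22.8% as lower. At 7 d, 0 of the 9 passed, where 0.787% of all genes passed as higher and 0.464% as lower, and 1 passed without gs1;2 7 d replicate 1. Since the genes were selected on these contrasts, nothing is read from their share.

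**Figure D2:**
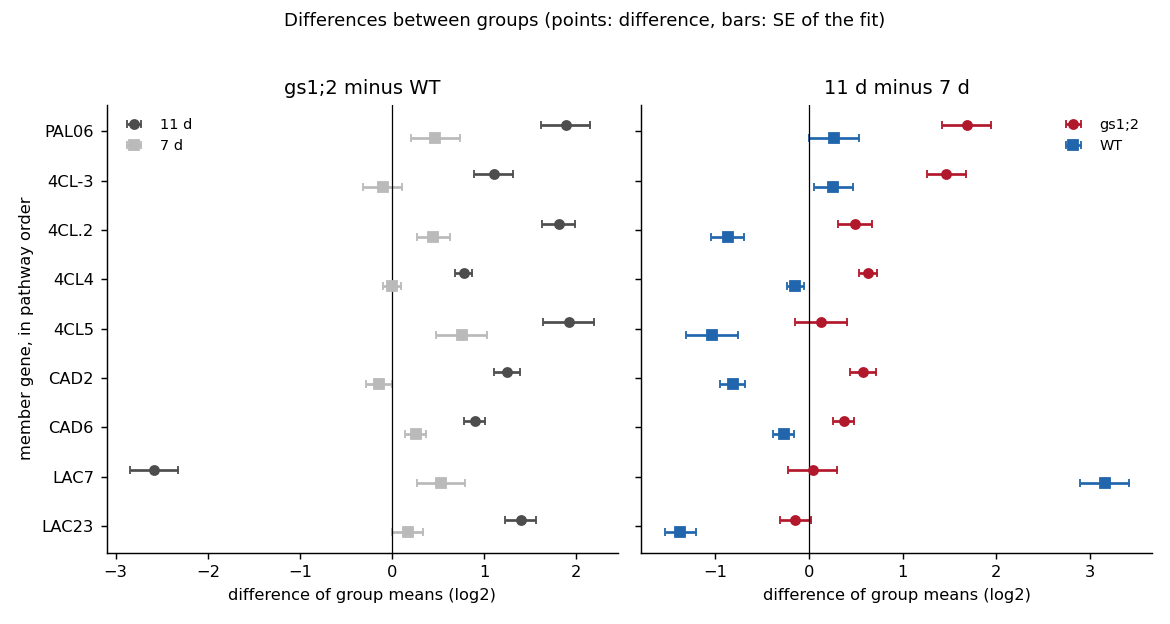
Differences of group means (log2, horizontal axis) are plotted for the 9 genes, gs1;2 minus wild type on the left (dark circles 11 d, pale squares 7 d) and 11 d minus 7 d on the right (red circles gs1;2, blue squares wild type), with bars for the SE of the fit. On the left all 11 d points except LAC7 lie between 0.77 and 1.92, and on the right LAC7 in wild type lies at 3.16 while LAC23 in wild type lies at -1.38.

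The genes also differed in which genotype held the age difference, 11 d minus 7 d. In the mutant, PAL06 was higher at 11 d by 1.68 (log2, SE 0.26), 4CL-3 by 1.47 (SE 0.21) and 4CL4 by 0.63 (SE 0.09), whereas in wild type these differences were 0.27, 0.26 and -0.15 with overlapping arrays. The wild-type values of PAL06 and 4CL-3 were 0.03 and 0.02 without wild-type 11 d replicate 1, and 0.44 and 0.39 without wild-type 11 d replicate 3. The mutant values became 1.93, 1.60 and 0.65 once the array labelled gs1;2 11 d replicate 3 was left out. LAC7 had the reverse layout, with 0.04 in the mutant (SE 0.26), or 0.13 without that array, and 3.16 in wild type (SE 0.26, 8.92-fold). LAC23 gave -0.15 in the mutant (SE 0.16), or -0.13 without it, and -1.38 in wild type (SE 0.16, 2.60-fold lower at 11 d). 4CL5 gave 0.13 in the mutant (SE 0.28), or 0.45 without it, and -1.03 in wild type (SE 0.28). In these 3 genes the mutant arrays of both ages overlapped, and the wild-type arrays did not.

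4CL.2 and CAD2 had age differences of opposite sign in the genotypes. 4CL.2 gave 0.49 in the mutant (log2, SE 0.18) and -0.87 in wild type (SE 0.18), and CAD2 gave 0.57 in the mutant (SE 0.14) and -0.82 in wild type (SE 0.14). Leaving out the array in doubt gave mutant values of 0.49 for 4CL.2 and 0.65 for CAD2, and 4CL.2 gave 0.33 without gs1;2 11 d replicate 1. In both genes the arrays of the 2 ages did not overlap in either genotype. The nearest mutant arrays of the 2 ages were only 0.09 apart for 4CL.2 and 0.21 for CAD2 (log2). The mutant age difference of 4CL.2 did not pass in the fit. CAD6 gave 0.37 in the mutant (SE 0.11), or 0.47 without the array in doubt, where the ages overlapped with all arrays, and -0.27 in wild type (SE 0.11), where they did not.

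By the fit's threshold, 4 of the 9 genes were higher and 0 lower with age in gs1;2, where 6.51% of all genes passed as higher and 8.98% as lower. In wild type 1 was higher and 4 were lower with age, where 25.5% of all genes passed as higher and 28.4% as lower. Leaving out single arrays gave 3 to 5 genes with age in gs1;2. The change of the genotype difference between the ages, 11 d minus 7 d, ran from 0.64 (CAD6) to 1.42 (PAL06) in the 8 genes other than LAC7, and was -3.12 in LAC7 (log2, SE 0.37). Leaving out the array in doubt, these were 0.74 (CAD6) to 1.67 (PAL06) and -3.03 (LAC7). By the same threshold 7 genes were higher and 1 was lower, where 18.6% of all genes passed as higher and 19.6% as lower. These comparisons share groups, so they are no separate evidence of each other.

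Seen by the group that stood apart from all other arrays, gs1;2 at 11 d was above them in 5 of the 9 genes, PAL06, 4CL-3, 4CL.2, 4CL4 and CAD2, as in 6.33% of all genes. Wild type at 11 d was below them in 5, 4CL.2, 4CL5, CAD2, CAD6 and LAC23, as in 21.5% of all genes, and above them in LAC7, as in 20.7% of all genes. PAL06, 4CL-3 and 4CL4 were thus set apart by the mutant at 11 d, 4CL5, CAD6 and both laccase genes by wild type at 11 d, and 4CL.2 and CAD2 by both groups. Neither 7 d group stood apart in any of the 9 genes. The share of all genes in which a 7 d group stood apart was not counted, so nothing is read from this.

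Markers of other cells moved with these layouts, and their part in the values was not tested. The green-leaf markers (5 of 9 matched), like PAL06 and 4CL-3, were highest in the mutant at 11 d, with summed linear signals of 17573 to 19093, against 10598 to 11297 in wild type at 11 d. At 7 d they summed to 10509 to 12237 in the mutant and 9137 to 12541 in wild type. These sums rested mostly on CAB2R, with mutant minus wild type at 0.46 (log2) at 11 d. The other matched green-leaf genes gave 1.125 (PORB) to 2.249 (PORA) at 11 d. Phloem markers (2 of 4 matched) were, like LAC7, highest in wild type at 11 d, with 5641 to 6117 in the mutant against 8564 to 8948 in wild type, and at 7 d they summed to 5541 to 6009 in the mutant and 5727 to 6122 in wild type. The phloem sums rested mostly on SUS2, with mutant minus wild type at -0.52 (log2) at 11 d and -0.08 at 7 d. SUT1, the dimmer phloem marker, gave -1.13 at 11 d and 0.69 at 7 d. Seed storage genes (3 of 4 matched) were also highest in wild type at 11 d, with 126 to 132 in the mutant against 454 to 601 in wild type at 11 d, and 121 to 166 in the mutant against 125 to 141 in wild type at 7 d. The 11 d sum rested mostly on 1 probe set of GLUA-2, with mutant minus wild type at -2.12 (log2). GLUA-1 gave -0.74 and GLUA-3, among the dimmest probe sets, -0.07, while a second GLUA-2 probe set outside the sum gave 0.19.

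The secondary wall genes CESA4, CESA7 and CESA9, which encode cellulose synthase subunits, and BC1, needed for strong secondary walls, mark cells that lay down lignin. Their summed linear signal (4 of 4 matched) was 2140 to 2841 in the mutant and 1195 to 1397 in wild type at 11 d, and 1418 to 1883 in the mutant and 2218 to 2803 in wild type at 7 d. At 11 d these markers were thus higher in gs1;2, like 8 of the 9 genes, whereas at 7 d every mutant array was below every wild-type array. None of the 9 genes had all its mutant arrays below those of wild type at 7 d. The share of all genes with that layout was not counted, so nothing is read from this.

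The other genes of the pathway were tested, although their list, like the 9 genes, was drawn up with earlier results of these data known and is no independent sample of the pathway. A list of 19 further genes was matched by name, with 1 4CL gene, 3 hydroxycinnamoyl transferase (HCT) genes, 2 O-methyltransferase (ROMT) genes, 1 CCR gene, 5 CAD genes and 7 laccase genes. Other steps of the pathway are not analysed here. Each was tested on its probe set with the highest mean, with limma and Benjamini-Hochberg adjustment over 57194 probe sets.

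At 11 d, 9 of the 19 genes rose in the mutant and 2 fell, with 8 that did not pass and a median difference of 0.47 (log2), against 0.02 over all genes. Over all genes 23.9% passed as higher and 22.8% as lower, so with so few genes per step the counts by step are a description. The 11 genes that passed became 7 without gs1;2 11 d replicate 1 or 2. Without the array labelled gs1;2 11 d replicate 3, 9 rose and 2 fell, with LAC24 gained and 4CL1 lost, and the differences were then 1.43 for LAC10, 0.78 for LAC4, 0.83 for CAD3, -0.56 for CAD8C, 0.45 for HCT2 and 0.49 for ROMT-15. By step, 3 of the 7 laccase genes rose, 2 of the 3 HCT genes and 1 of the 2 ROMT genes rose, and the CAD genes split, with 2 that rose, 2 that fell and 1 that did not pass. The laccase gene LAC10 was at 8.24, 8.33 and 8.00 (log2 level) in the mutant at 11 d, against 6.88, 6.83 and 6.85 in wild type, with no overlap. Its difference was 1.34 (log2, SE 0.22, limma adjusted p = 0.000666). LAC4 rose by 0.75 (SE 0.16, adjusted p = 0.00432), with levels of 7.76, 7.84 and 7.72 in the mutant, against 7.12, 6.94 and 7.00 in wild type. LAC19 rose by 1.65 (SE 0.38, limma adjusted p = 0.00632), but its levels of 5.06, 5.70 and 3.81 in the mutant, against 3.59, 2.68 and 3.36 in wild type, were spread widely within the groups. Its lowest mutant array was the one in doubt, without which the difference was 2.17. None of the 7 laccase genes of this list passed as lower at 11 d, unlike the direction described for LAC7. LAC15 and LAC20, named after their values were seen, were dim among these 7. They ranged over the 12 arrays from 2.84 to 3.30 and from 2.23 to 2.79 (log2 level), so whether they could show a difference is unknown.

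CAD3 rose by 0.99 at 11 d (log2, SE 0.16, limma adjusted p = 0.000702), with levels of 8.64, 8.38 and 8.99 in the mutant, against 7.86, 7.54 and 7.65 in wild type. CAD8C fell by 0.59 on the log2 scale (SE 0.10, limma adjusted p = 0.000699), with levels of 8.11, 7.91 and 7.92 in the mutant, against 8.62, 8.63 and 8.45 in wild type. The groups did not overlap in either gene. CAD7, known in rice as FLEXIBLE CULM 1, rose by 0.65 (SE 0.19, limma adjusted p = 0.0225), but the array labelled gs1;2 11 d replicate 3 lay within the range of wild type at 5.86 (log2 level). The 2 other mutant arrays, at 6.50 and 6.45, lay above all wild-type arrays, and without the array in doubt the difference was 0.85 (limma adjusted p = 0.00355). The call was lost without wild-type 11 d replicate 1 (0.44, adjusted p = 0.0884), gs1;2 11 d replicate 1 (0.53, adjusted p = 0.0953) or gs1;2 11 d replicate 2 (0.56, adjusted p = 0.0891). HCT2, which encodes a hydroxycinnamoyl transferase between the 4CL and CCR steps, rose by 0.47 (SE 0.09, limma adjusted p = 0.00143), and ROMT-15 rose by 0.51 (SE 0.09, limma adjusted p = 0.000694), each without overlap.

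At 7 d, 0 of the 19 genes passed in limma's fit, where 0.787% of all genes passed as higher and 0.464% as lower. With trend and robust moderation 0 of the 19 passed. An unadjusted limma p under 0.05 was found for 7 of the 19. The share of all genes at that unadjusted threshold was not counted, so nothing is read from this count. Those 7, named after their values were seen, were CAD8A, CAD8C, CAD3, LAC4, LAC24, LAC3 and LAC10. LAC10 was at 6.62, 7.24 and 7.10 (log2 level) in the mutant at 7 d, against 7.35, 8.19 and 8.34 in wild type, so every mutant array was lower, and the difference of -0.98 (log2, SE 0.22) had the sign opposite to that at 11 d. LAC4 gave -0.54 (SE 0.16) and CAD3 gave -0.45 (SE 0.16) at 7 d. The change of the genotype difference between the ages passed for 6 of the 19 genes, higher in 5 and lower in 1, where 18.6% of all genes passed as higher and 19.6% as lower, and nothing about the pathway is read from that count. It was 2.31 for LAC10 (log2, SE 0.31, limma adjusted p = 0.000309), 1.44 for CAD3 (SE 0.23, limma adjusted p = 0.000964) and 1.29 for LAC4 (SE 0.23, limma adjusted p = 0.00184). These values were 2.41, 1.28 and 1.31 when the array in doubt was left out, and all 3 passed.

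**Figure D3:**
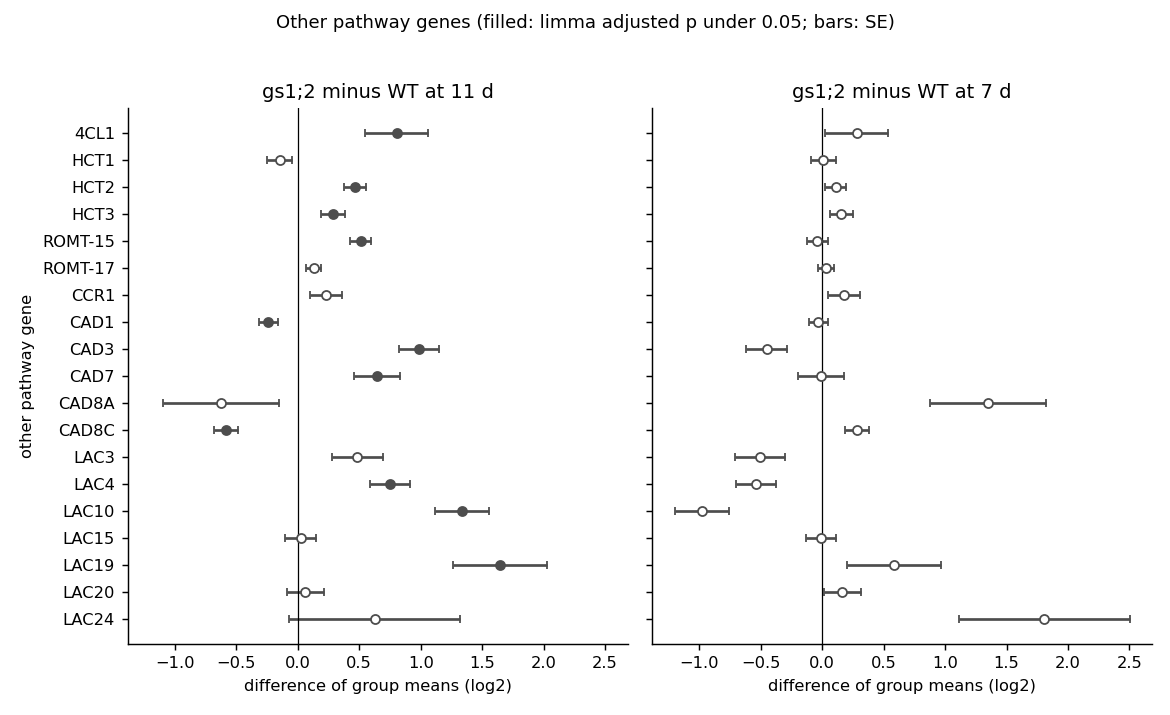
The genotype difference, gs1;2 minus wild type (log2, horizontal axis), is plotted for the 19 other pathway genes at 11 d on the left and at 7 d on the right, with bars for the SE and filled points where limma's adjusted p was under 0.05. At 11 d 11 points are filled, LAC19 at 1.65 being the farthest to the right, and at 7 d none is filled, with LAC10 at -0.98 the farthest to the left.

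With age, 4 of the 19 genes rose and 1 fell in gs1;2, and 3 rose and 5 fell in wild type. Over all genes 6.51% rose and 8.98% fell in gs1;2, and 25.5% rose and 28.4% fell in wild type, so the wild-type counts are near or below the general share. The 5 of gs1;2 became 3 without gs1;2 7 d replicate 3 or gs1;2 11 d replicate 1. LAC10 rose by 1.21 with age in the mutant (log2, limma adjusted p = 0.00473, or 1.30 without the array in doubt) and fell by 1.11 in wild type (limma adjusted p = 0.0019). CAD3 rose by 0.67 in the mutant (limma adjusted p = 0.0255) and fell by 0.77 in wild type (limma adjusted p = 0.00296). Its rise in gs1;2 did not pass without gs1;2 7 d replicate 3 (adjusted p = 0.0943), gs1;2 11 d replicate 1 (adjusted p = 0.0666) or the array labelled gs1;2 11 d replicate 3 (adjusted p = 0.0957). CAD8C went the other way, with a difference of -0.54 in the mutant (limma adjusted p = 0.0046, or -0.50 without the array in doubt) and a rise of 0.34 in wild type (limma adjusted p = 0.019), a call lost when wild-type 7 d replicate 1 (adjusted p = 0.0645) or wild-type 11 d replicate 1 (adjusted p = 0.0622) or 2 (adjusted p = 0.0708) was left out. LAC4 fell by 1.24 in wild type (limma adjusted p = 8.9e-05) and did not pass in gs1;2. The secondary wall markers and LAC10, LAC4 and CAD3 thus shared an order of means in which gs1;2 at 7 d lay below wild type at 7 d and gs1;2 at 11 d lay above wild type at 11 d, and their part in each other's values was not tested. These 3 genes were set beside the markers after their values were seen, and none of them passed at 7 d. Other genes had this order too, among them LAC3 (-0.50 at 7 d and 0.48 at 11 d), 4CL-3 (-0.10 and 1.10) and CAD2 (-0.14 and 1.25).

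One further laccase gene depended on the array in doubt. LAC24, named after its values were seen, was at 8.26, 7.54 and 4.75 (log2 level) on the arrays labelled gs1;2 at 11 d, against 6.48, 5.41 and 6.77 in wild type. Its 7 d levels were 5.39, 6.49 and 6.46 in the mutant, against 4.42, 4.12 and 4.38 in wild type, without overlap. With all arrays its 11 d difference was 0.63 (log2, SE 0.70) and did not pass. Without the array labelled gs1;2 11 d replicate 3, the lowest of its group, the 11 d difference was 1.68 and passed (limma adjusted p = 0.00992). The 7 d difference was 1.81 with and without that array. It passed only without it (limma adjusted p = 0.0416), since the spread of the 11 d mutant group enters every contrast of the fit.

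For each of the 9 genes, the genes whose log2 levels were most alike over the 12 arrays were sought among 2448 genes with an informative name. These correlations reflect the shared group means and are given as a description. PAL06 was most like HCT2 (r = 0.952) and DAHPS1 (r = 0.947), which encodes an enzyme of the first step of the shikimate pathway. DAHPS1 was also the nearest gene to 4CL-3 (r = 0.971), before the expansin gene EXPB3 (r = 0.945), and the second nearest to 4CL4 (r = 0.957), after MtN3-like (r = 0.972). 4CL.2 was most like RCABP69, a chlorophyll-binding protein gene on the green-leaf list (r = 0.959), and HPT2 (r = 0.957), while 4CL5 was most like the nitrate reductase gene NIA1 (r = 0.954) and ISPG (r = 0.952). CAD2 was nearest to GUT1 (r = 0.978) and rgp2 (r = 0.965), and CAD6 to RCABP69 (r = 0.942) and NIA1 (r = 0.934). LAC7 was most like IAA1 and SPL11 (r = 0.988 each), and LAC23 like Os-UGD3, a UDP-glucose dehydrogenase gene (r = 0.977), and the glucanase gene GLU14 (r = 0.973). Among the 9 genes themselves, PAL06 and 4CL-3 correlated at 0.941, and LAC7 and LAC23 at -0.913.

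The arrays of a group also differed from each other in a way that part of the 9 genes shared. After each group's mean was subtracted, 32 of the 36 pairs of the 9 genes correlated above 0 over the 12 arrays, with a median r of 0.32 (range -0.33 to 0.93), against a median of 0.02 over all pairs of genes. The share of all pairs above 0 was not counted. Pairs among PAL06, 4CL-3, 4CL4, 4CL5, CAD2 and CAD6 ran from 0.333 to 0.927. The highest value was 0.341 for 4CL.2 and 0.310 for LAC23, and LAC7 ran from -0.333 to 0.588. The closest pairs were PAL06 with CAD2 (r = 0.927) and PAL06 with 4CL-3 (r = 0.915). The array labelled gs1;2 11 d replicate 3 was the lowest of its group in 8 of the 9 genes, as in 35.8% of all genes. Wild-type 11 d replicate 1 was the highest of its group in 8 of 9, as in 33.9% of all genes, and gs1;2 7 d replicate 2 was the highest in 7 of 9, as in 27.7%. These values are a description of 12 arrays that share probes, labelling and normalisation.

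**Figure D4:**
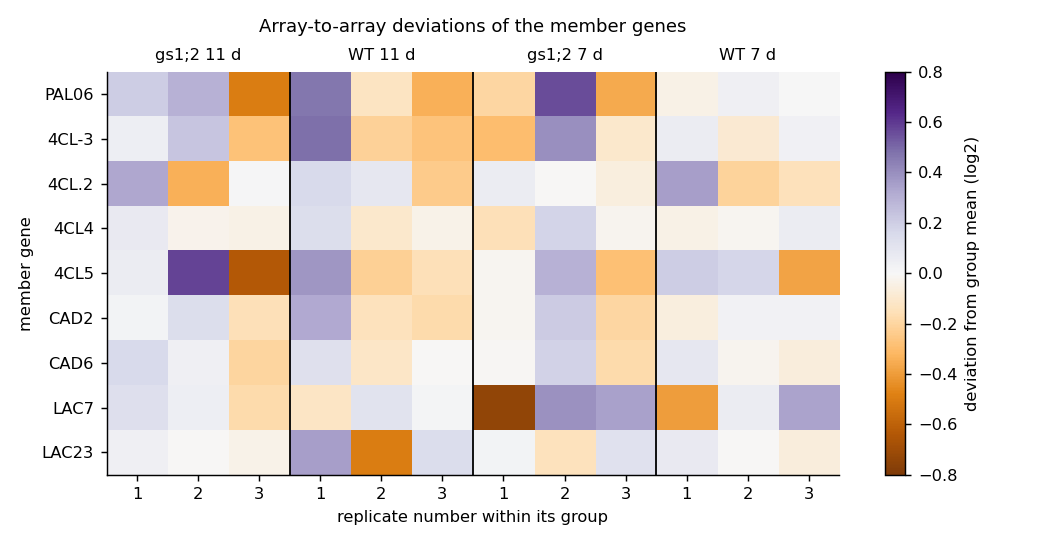
Deviation of each array from its group's mean (log2, colour scale from -0.8 to 0.8) is shown for the 9 genes (rows) and the 12 arrays (columns, 3 replicates in each of the 4 groups). Most genes are below their mean, in orange, on the array labelled gs1;2 11 d replicate 3 and above it, in purple, on wild-type 11 d replicate 1.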

How the data were processed

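The authors deposited log2 signals, and the submitters' processing notes name robust multi-array averaging (RMA) and R 3.1.0. How RMA was set, and whether it ran on the 12 arrays together, is not given in the sources used here. Array medians were 4.944 to 5.005 (log2), so no further normalisation was applied, and 0 pairs of arrays were identical. Scanner files were not used here. The small number of arrays limits the stated precision, beside the other limits named in the text. The table held 57381 probe sets, and 57194 were tested after 187 controls were left out.

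Probe sets were named from the platform annotation (22436 with 1 gene, 95 with several, 34663 with none listed). Symbols and gene order come from a RefSeq gene table (ASM3414082v1), and no coordinates are printed because the build of the array annotation is not given. All 17905 genes were found there, and 2457 had an informative symbol or synonym. Since few symbols were informative, the search for similar genes used synonyms too. A match of a C3H name to a zinc finger gene was dropped from the pathway list, 0 of 10 planned regulator genes could be used, and no sequences were used here.

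One mean per group was fitted to the 12 arrays with limma 3.58.1 (R 4.3.3, 8 residual degrees of freedom), with two-sided p-values adjusted by Benjamini-Hochberg. Group means and SDs are over 3 arrays. A gene was read on its probe set with the highest mean. The text names the 9 genes, the 8 other pathway genes with the smallest p at 11 d and any that passed at 7 d, the 2 most similar genes for each of the 9, the targeted gene and the markers. Other pathway genes are introduced as named after their values were seen. The 9 genes and all lists were chosen with earlier results of these data known. The fit was tested on simulated data. Alternatives were other moderation, only the groups compared, a filter on dim probe sets, a common median, quantile normalisation, array weights, any probe set of a gene, each array left out, and a replicate block at 7 d.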

Additional observations from a re-analysis of the deposited data

Results flagged for a closer look

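In 6 of the other pathway genes the genotype difference, gs1;2 minus wild type, differed between the ages by limma's test of that change, 11 d minus 7 d. The change was 2.31 for LAC10, 1.44 for CAD3, 1.29 for LAC4, 0.99 for LAC3, 0.55 for ROMT-15 and -0.87 for CAD8C (log2). Over all genes, 18.6% passed as higher and 19.6% as lower in this contrast, and nothing about the pathway is read from the count of 6 of 19. Leaving out the array labelled gs1;2 11 d replicate 3 gave 2.41, 1.28, 1.31, 1.02, 0.53 and -0.84. LAC3, named here after its values were seen, had a limma adjusted p of 0.0293 and passed in 6 of the 12 fits that left out an array.

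In 4CL.2 and CAD2 all arrays at 11 d lay above all arrays at 7 d in gs1;2, and below them in wild type. For 4CL.2 the nearest arrays of the 2 ages in gs1;2 were only 0.09 apart (log2), and that age difference did not pass in the fit. The age differences, 11 d minus 7 d, were as follows. 4CL.2 gave 0.49 in gs1;2 and -0.87 in wild type, and CAD2 gave 0.57 in gs1;2 and -0.82 in wild type (log2). Both genes are among the 7 that passed as higher in the fit's change of the genotype difference, but they were chosen on these same contrasts, so that call is no test of them and an independent test of the difference was not made.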

How the results depend on the processing

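At 7 d, 2 of the 19 other pathway genes (CAD8A and LAC24, higher) passed when only the groups compared were fitted, and leaving out single arrays gave 0 to 1, with LAC10 passing without wild-type 7 d replicate 1 and LAC24 without gs1;2 11 d replicate 3. With a replicate block on the title numbers 8 and 9 that both genotypes carry at 7 d, 2 passed, both lower (LAC4, limma adjusted p = 0.0219, and LAC10, 0.00793). The deviations of same-numbered arrays from their group means correlated at 0.047 and 0.051 over all probe sets. These 2 values cannot settle whether a shared number marks a pairing, so both fits are given. Leaving out single arrays gave 7 to 12 passing genes at 11 d, against 11 with all arrays, with 7 without gs1;2 11 d replicate 1 or 2, and 3 to 6 for the age difference in gs1;2, against 5, with 3 without gs1;2 7 d replicate 3 or gs1;2 11 d replicate 1. The cause was not tested. Counts for the age difference in wild type and for the change between the ages stayed within 1.5 times under all alternatives run. The 9 described genes were not counted under other moderation, the filter on dim probe sets or any probe set of a gene. Under the alternatives counted for them at 11 d, 8 passed as higher and 1 as lower, each on its probe set with the highest mean. In the main fit 23.9% of all genes passed as higher at 11 d and 22.8% as lower. None of the 11 d differences of the 9 genes moved by 1.5 times. Since they were chosen on this contrast, nothing is read from these calls. With 3 arrays per group and no scanner files, how far dim probe sets such as the second of 4CL4 lie above background is unknown.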

Other observations

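The other 3 calls at 11 d belong to pathway genes named here after their values were seen. 4CL1, a further ligase gene, rose by 0.81 in gs1;2 (log2, SE 0.26, limma adjusted p = 0.035) and passed in 6 of the 12 fits that left out an array. HCT3 rose by 0.29 (SE 0.09, limma adjusted p = 0.0419) and passed in 3 of them, and CAD1 fell by 0.24 on the log2 scale (SE 0.08, limma adjusted p = 0.0367) and passed in 7. Without the array labelled gs1;2 11 d replicate 3 these differences were 0.71 for 4CL1, 0.33 for HCT3 and -0.28 for CAD1. HCT1, also named after its values were seen, rose with age in wild type by 0.50 (limma adjusted p = 0.00206), whereas its genotype difference at 11 d was -0.15 (SE 0.10) and did not pass.

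The neighbours ROMT-17 and LAC20 are likewise named outside the naming rule. By gene order in the table used for names, ROMT-15 and ROMT-17 lie next to each other, as do LAC19 and LAC20. ROMT-15 rose by 0.51 at 11 d and ROMT-17 gave 0.13 (log2, SE 0.06, limma adjusted p = 0.183). LAC19 rose by 1.65, and LAC20 gave 0.06 (log2, SE 0.15, limma adjusted p = 0.821). LAC20 was dim, at 2.23 to 2.79 (log2 level) over the 12 arrays, so whether its probe set could show a difference is unknown. Of the 9 described genes, 4CL-3 and CAD2 lie closest together, with 83 genes between them.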
